A study of Mus musculus with 6 samples.

Results

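Glycolysis and the pentose phosphate pathway were examined through 35 genes chosen by name: carriers of glucose and lactate, the glycolytic enzymes and their regulators, and the pentose phosphate enzymes. All 35 symbols were found among the 56832 gene rows, and all 35 were among the 12488 genes with enough counts to test. The RNA came from cells that the labels call monocytes, isolated from mouse peripheral blood. Mice of the thrombocytopenic group (3 libraries) were PF4cre-iDTR: a Cre recombinase under the promoter of Pf4, chosen to act in megakaryocytes, turns on an inducible diphtheria toxin receptor. Mice of the control group (3 libraries) were wild type (WT). Diphtheria toxin is named as the treatment of both groups, so toxin exposure was shared, while genotype and platelet state changed together and cannot be told apart. Strain, age, sex, dose and time are not analysed here, and the labels do not say whether each library is a different animal. The p-values therefore speak of library-to-library spread alone, part or all of which may be technical.

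Glycolysis splits glucose into pyruvate in the cytosol. Hexokinases trap glucose as glucose 6-phosphate, phosphofructokinase commits the sugar to breakdown, and lactate dehydrogenase and the monocarboxylate carriers dispose of the product when it does not enter mitochondria. The pentose phosphate pathway branches off at glucose 6-phosphate. Its oxidative arm makes NADPH, which phagocytes spend on the oxidative burst, on antioxidant defence and on lipid synthesis, and its non-oxidative arm returns pentoses to glycolysis. Activated macrophages are known for high glycolytic flux, much of it through isozymes that respond to hypoxia-inducible factor.

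Libraries held 24842319 to 37552029 counts, and the common biological coefficient of variation was 2.68%. Defining monocyte markers were abundant, with Lyz2 at a mean of 13700 CPM (counts scaled to the library total) in the thrombocytopenic and 12000 CPM in the control libraries and Csf1r at 1480 and 1230 CPM. The macrophage gene Adgre1 stood at 3280 and 2720 CPM, and Cx3cr1 was low at 11.4 and 52.3 CPM. Pf4 RNA was itself present at 1090 and 926 CPM. Activity of the Cre driver in these cells was not tested.

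Hexokinase genes, at the entry of glycolysis, were lower in the thrombocytopenic libraries. Of the 7 pentose phosphate genes among the 35, 4 were higher, none was lower and 3 did not pass. H6pd, a gene of the first pentose phosphate steps in the endoplasmic reticulum and outside the 35, was lower by 34.6%. All 3 hexokinase genes fell, by 16.2% for Hk1, 31.4% for Hk2 and 35.8% for Hk3 (n = 3 in each group). G6pdx, Pgd, Tkt and Taldo1 rose by 13.4% to 23.7%. Over the 35 genes, 8 were higher and 16 lower in the quasi-likelihood test of edgeR (adjusted p below 0.05), and 11 did not pass. Calls in either direction covered 45.1% of all tested genes. The higher share was 22.9% of the members, against a background of 22.4% of all tested genes. The lower share was 45.7%, against 22.7%. The members have more counts than most genes, with a median of 140 CPM against 20.0 CPM, and the share of genes that passed depended on the level. Among tested genes with a mean of at least 100 CPM, 43.8% were higher and 27.4% lower, and of the 22 members above that level 6 (27.3%) were higher and 12 (54.5%) lower. The median log2 fold change was -0.06 for the members, and -0.00077 for all tested genes.

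**Figure D1:**
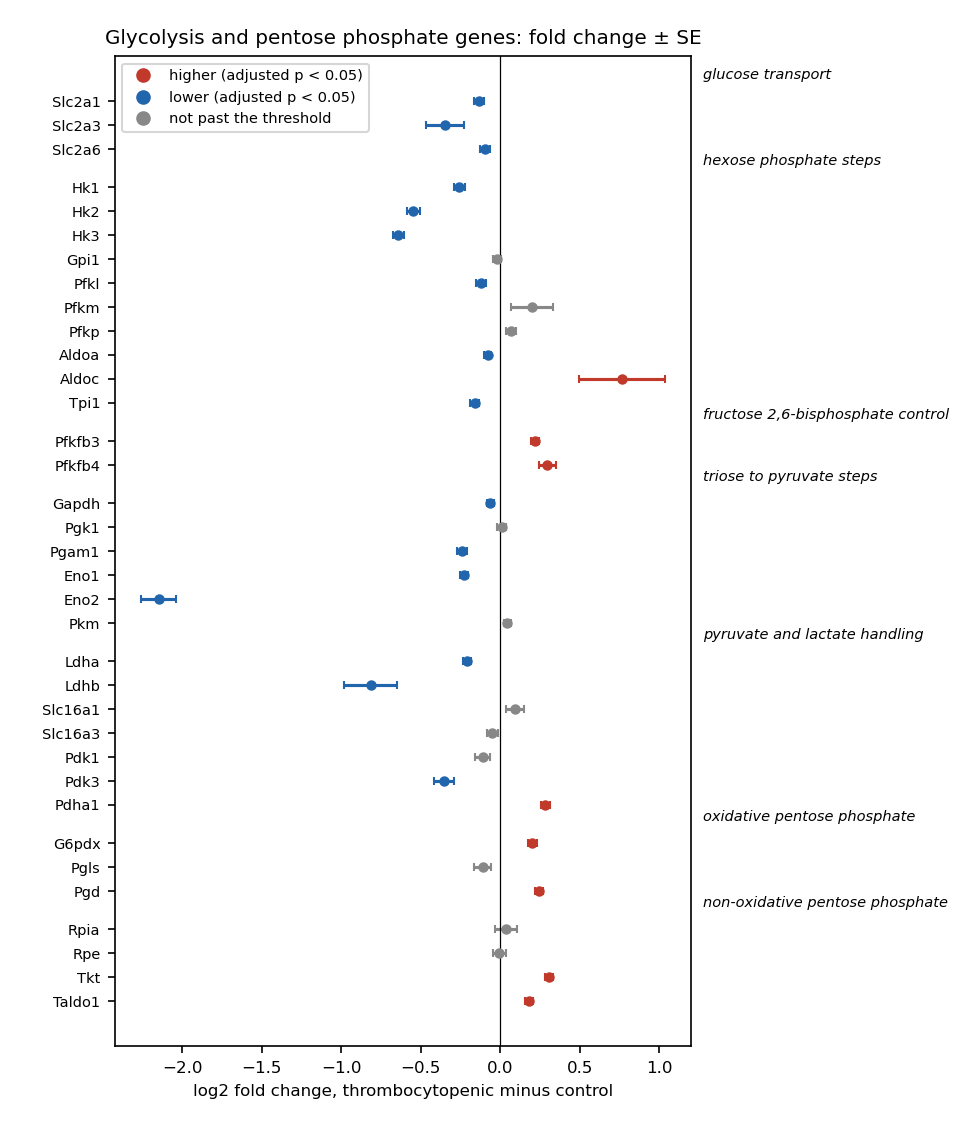
Log2 fold change of each of the 35 genes, thrombocytopenic minus control, with its standard error as a bar; 3 libraries per group, genes grouped by role and coloured by the edgeR call. Hk1, Hk2 and Hk3 lie below 0, Eno2 lies farthest out at -2.15, and Pfkfb3, Pfkfb4, G6pdx, Pgd, Tkt and Taldo1 lie above 0.

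Most changes were under 1.5-fold. In all, 4 of the 35 members (11.4%) passed the test with a change of at least 1.5-fold, namely Hk3, Eno2, Ldhb and Aldoc, against 9.63% of all tested genes. Eno2 alone passed and changed at least 2-fold (2.86% of members, against 3.92%). Libraries of a group lay close together: the median coefficient of variation of a member was 1.84% in the thrombocytopenic and 2.30% in the control group, against 4.58% and 4.53% over all tested genes. This comparison was not matched for level, and the members had a median of 140 CPM against 20.0 CPM. The 3 thrombocytopenic libraries lay wholly above the control libraries for 9 members (25.7%, against 25.2% of tested genes) and wholly below for 16 (45.7%, against 26.0%), where 51.3% of tested genes were separated in either direction. Pkm and Pgls were separated in this way without passing the test, and Gapdh passed with overlapping libraries.

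**Figure D2:**
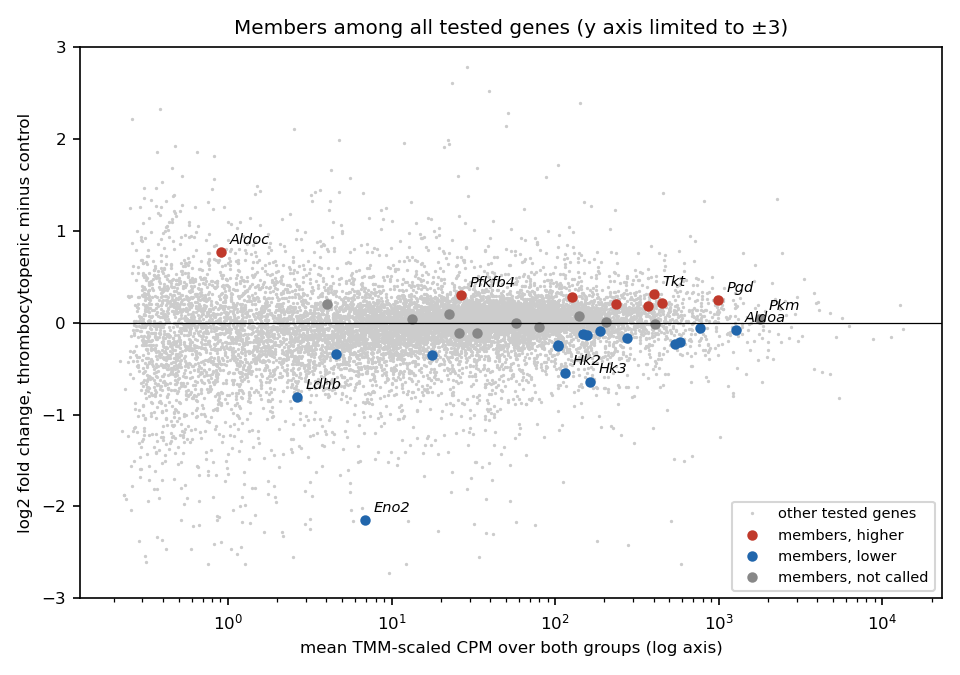
Log2 fold change (vertical axis, limited to ±3, which leaves out 33 other genes) against the mean TMM-scaled CPM over both groups (log axis) for all 12488 tested genes, with the 35 members in colour. Most members lie at high CPM and within 0.5 of 0, with Eno2, Ldhb, Hk2, Hk3 and Aldoc farther out.

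The 3 genes of glucose carriers among the members were all lower, by small amounts. Slc2a1 encodes GLUT1, the widespread basal glucose carrier. It stood at 149.1, 148.6 and 149.6 CPM in the thrombocytopenic libraries and at 165.5, 164.2 and 160.7 CPM in the control libraries (log2 fold change -0.13, SE 0.029, adjusted p = 0.000158). The groups did not overlap. Slc2a6 encodes GLUT6, a carrier known from lysosomes of inflammatory macrophages. Its thrombocytopenic libraries, at 179.3 to 183.4 CPM, lay below the control libraries at 189.2 to 203.5 CPM (-0.09, SE 0.030). The call for Slc2a6 was lost without control replicate 1 (-0.06, adjusted p = 0.126). Slc2a3, the gene of the high-affinity carrier GLUT3, was scarce at 4.13, 3.75 and 4.08 CPM against 5.91, 4.61 and 4.88 CPM (-0.35, SE 0.12, adjusted p = 0.0152), and its call was lost without control replicate 1 (-0.25, adjusted p = 0.135) or thrombocytopenic replicate 2 (-0.31, adjusted p = 0.0551). Per kilobase of exon, Slc2a6 made up 64.5% of the RNA of these 3 carriers in the thrombocytopenic and 63.8% in the control group. Slc2a8 and Slc2a9, outside the members and named after their values were seen, did not pass. Slc2a8 stood at 3.61 and 4.34 CPM in the thrombocytopenic and control libraries (-0.29, adjusted p = 0.0688). Slc2a9 stood at 9.76 and 10.1 CPM (-0.04, adjusted p = 0.705).

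Hexokinase RNA was lower in all 3 genes. Hk1, the housekeeping hexokinase bound to mitochondria, stood at 92.9, 95.9 and 97.4 CPM in the thrombocytopenic libraries and 111.3, 116.4 and 113.9 CPM in the controls. Hk2, the inducible hexokinase of activated and proliferating cells, stood at 88.1, 93.6 and 97.2 CPM against 128.5, 144.7 and 133.1 CPM. Hk3, the hexokinase typical of myeloid cells, stood at 128.8, 121.6 and 132.6 CPM against 193.4, 211.9 and 191.4 CPM. In each of the 3 genes every thrombocytopenic library was below every control library, as for 26.0% of all tested genes. The log2 fold changes were -0.26 (SE 0.033) for Hk1, -0.55 (SE 0.040) for Hk2 and -0.64 (SE 0.036) for Hk3, with adjusted p-values of 2.07e-09, 2.3e-11 and 1.67e-15. Summed over the 3 genes, hexokinase RNA was 316.0 ± 9.65 CPM (mean ± SD) in the thrombocytopenic and 448.2 ± 21.7 CPM in the control group. Per kilobase of exon, Hk3 was the main hexokinase in both groups, at 51.2% ± 1.29 of the 3 genes in the thrombocytopenic and 55.5% ± 0.633 in the control libraries, while the share of Hk1 was 26.5% ± 0.623 and 22.0% ± 0.654.

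**Figure D3:**
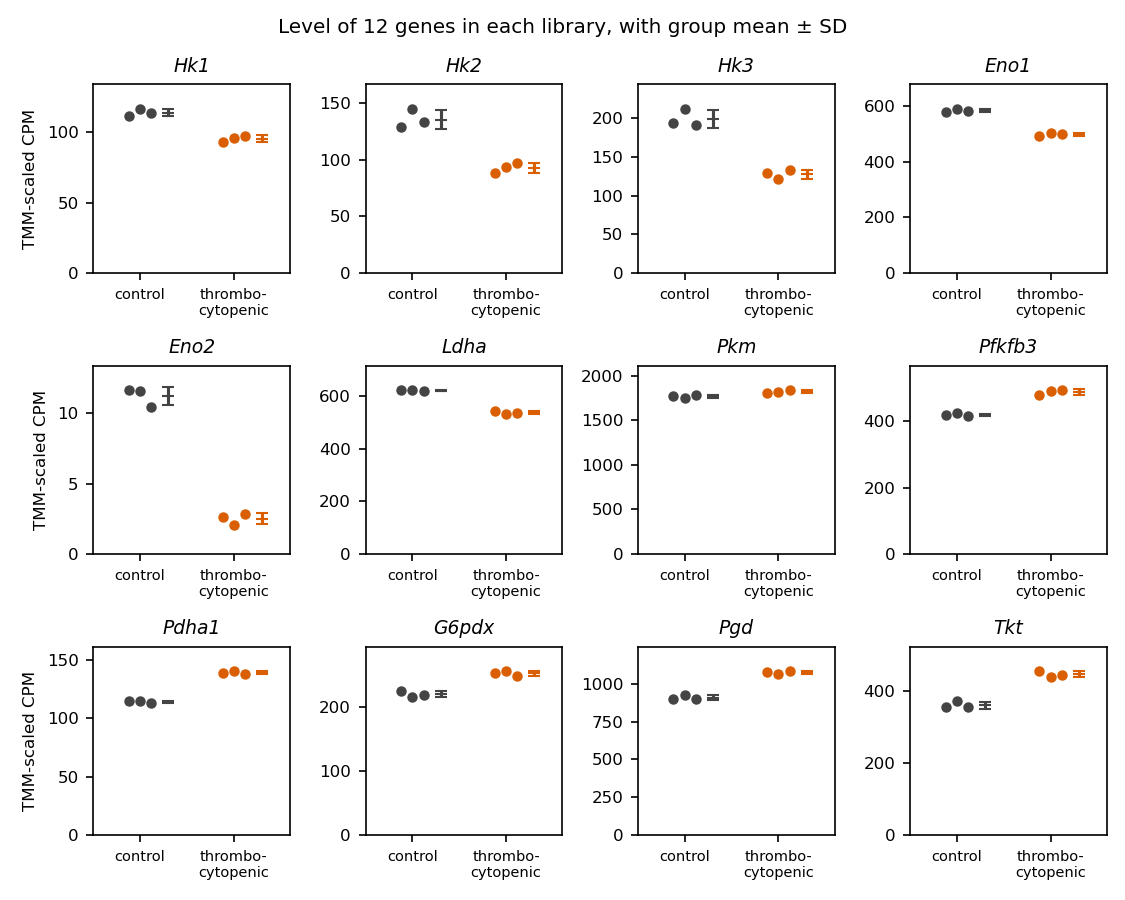
TMM-scaled CPM (vertical axes, from 0) of 12 genes in each of the 3 control and 3 thrombocytopenic libraries, with group mean ± SD beside the points. The hexokinases, Eno1, Eno2 and Ldha are lower and Pfkfb3, Pdha1, G6pdx, Pgd and Tkt higher in every thrombocytopenic library, and Pkm lies at 1809 to 1839 against 1752 to 1779 CPM.

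In the steps from glucose 6-phosphate to triose phosphates, the genes with a mean of at least 100 CPM differed by less than the hexokinases. Gpi1, which turns glucose 6-phosphate into fructose 6-phosphate and so sits at the branch to the pentose pathway, was at 405.7 ± 3.92 CPM against 411.2 ± 9.29 CPM, a difference short of the threshold (-0.02, SE 0.026). Of the phosphofructokinase subunits, the liver-type Pfkl was lower (-0.12, SE 0.031, adjusted p = 0.000994). The platelet-type Pfkp, at 143.8 ± 5.78 CPM against 137.1 ± 6.505 CPM, did not pass in all libraries (0.07, adjusted p = 0.0928) but did without thrombocytopenic replicate 2 (0.10, adjusted p = 0.0208). The muscle-type Pfkm, at 4.26 and 3.77 CPM, did not pass either. Aldoa, the main aldolase here, was slightly lower, at 1250, 1253 and 1237 CPM against 1326, 1319 and 1304 CPM (-0.08, SE 0.023, adjusted p = 0.00437). Tpi1, triose phosphate isomerase, was lower by 10.6% (-0.16, SE 0.027). Aldoc, the brain-type aldolase, was the only gene of these steps to rise, from 15, 30 and 16 counts in the control to 39, 32 and 48 counts in the thrombocytopenic libraries (log2 fold change 0.77, SE 0.27, adjusted p = 0.0165). That call was lost without thrombocytopenic replicate 3 (adjusted p = 0.0994), control replicate 1 (0.0515) or control replicate 3 (0.0809).

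Bifunctional enzymes set fructose 2,6-bisphosphate, the allosteric activator of phosphofructokinase. Their genes among the members, Pfkfb3 and Pfkfb4, were higher. Pfkfb3, whose product mainly makes the activator, stood at 477.4, 490.7 and 493.5 CPM against 417.7, 423.5 and 415.8 CPM (log2 fold change 0.22, SE 0.026, adjusted p = 2.69e-10). Pfkfb4 stood at 28.6, 31.4 and 27.9 CPM against 23.6, 24.0 and 23.7 CPM (0.30, SE 0.054, adjusted p = 6.46e-06). The groups did not overlap for Pfkfb3 or Pfkfb4, so that their RNA was higher in the libraries in which hexokinase RNA was lower. Pfkfb1 and Pfkfb2, outside the members and named after their values were seen, did not pass. Pfkfb1 stood at 1.74 and 2.06 CPM in the thrombocytopenic and control libraries (-0.24, adjusted p = 0.329). Pfkfb2 stood at 3.64 and 3.64 CPM (0.003, adjusted p = 0.988).

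From triose phosphate to pyruvate, 4 of 6 genes were lower and none passed as higher, where 22.7% of all tested genes, and 27.4% of those with a mean of at least 100 CPM, were lower. Gapdh, the dehydrogenase often taken as a reference gene, was at 747.1 ± 12.9 CPM against 779.4 ± 17.9 CPM (-0.06, SE 0.025, adjusted p = 0.0400). Its libraries overlapped, and its call was lost without any of 4 single libraries: thrombocytopenic replicate 2 (adjusted p = 0.163) or 3 (0.0804), and control replicate 1 (0.106) or 2 (0.117). Pgk1, phosphoglycerate kinase, was at 204.9 ± 2.86 CPM against 203.5 ± 3.69 CPM, also short of it (0.01, SE 0.028). Pgam1, phosphoglycerate mutase, fell by 15.2% (-0.24, SE 0.032), and Eno1, the main enolase, by 14.7% (-0.23, SE 0.025). Pkm, pyruvate kinase, had the most counts of the 35 genes, with no correction for length, and stood at 1809, 1818 and 1839 CPM against 1771, 1752 and 1779 CPM. Its groups were separate but it did not pass the test (0.04, SE 0.023, adjusted p = 0.113), and counts per gene do not tell its M1 and M2 splice forms apart.

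Eno2, the neuronal-type enolase, had the largest fold change of the 35 genes. It had 98, 62 and 101 counts in the thrombocytopenic libraries and 290, 417 and 300 counts in the controls, or 2.63, 2.08 and 2.82 CPM against 11.7, 11.6 and 10.5 CPM. Levels were 4.48-fold lower (log2 fold change -2.15, SE 0.11, adjusted p = 1.09e-23), and no thrombocytopenic library came near a control library. Eno2 is the minor gene of the Eno1 and Eno2 pair in these cells. Per kilobase of exon it made up 0.457% ± 0.0724 of the RNA of the pair in the thrombocytopenic and 1.72% ± 0.0974 in the control group. Eno3, a further enolase gene outside the 35 and named after its values were seen, is not part of that share. It stood at 4.68 and 4.72 CPM and did not pass (0.003, adjusted p = 0.99).

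Genes that decide between lactate and mitochondrial use of pyruvate moved in both directions. Ldha, the subunit of lactate dehydrogenase that predominates here, was lower at 544.2, 533.5 and 536.3 CPM against 622.4, 623.2 and 618.4 CPM (-0.21, SE 0.025, adjusted p = 3.56e-10). Ldhb, the heart-type subunit, was scarce and also lower, with 62, 52 and 82 counts against 102, 121 and 76 counts in libraries of different depth (-0.81, SE 0.17, adjusted p = 5.80e-05). The lactate carriers Slc16a1 (MCT1, 23.2 and 21.8 CPM) and Slc16a3 (MCT4, 78.8 and 81.6 CPM) did not pass. Pdha1, the catalytic subunit of pyruvate dehydrogenase that lets pyruvate into the citrate cycle, was higher at 138.6, 140.1 and 137.3 CPM against 114.5, 114.2 and 113.0 CPM (0.28, SE 0.030, adjusted p = 1.7e-11). Pdk3, a kinase that inactivates this enzyme, was lower at 15.7, 15.6 and 14.8 CPM against 20.4, 18.1 and 20.8 CPM (-0.36, SE 0.064, adjusted p = 5.85e-06). Pdk1, another such kinase, was at 31.9 and 34.5 CPM and did not pass (-0.11, adjusted p = 0.0623), but passed without thrombocytopenic replicate 3 (adjusted p = 0.0227) or control replicate 2 (0.0391).

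In the pentose phosphate pathway 4 of 7 genes rose, none fell and 3 did not pass. The 4 that rose all had a mean of at least 100 CPM, a level at which 43.8% of all tested genes were higher. G6pdx, glucose 6-phosphate dehydrogenase, which makes the first NADPH and controls entry, stood at 253.9, 256.7 and 249.4 CPM against 226.1, 216.4 and 219.2 CPM (log2 fold change 0.20, SE 0.028, adjusted p = 2.41e-08). Pgd, phosphogluconate dehydrogenase, which makes the next NADPH, stood at 1075, 1066 and 1084 CPM against 899.6, 925.4 and 899.4 CPM (0.24, SE 0.024, adjusted p = 1.03e-12). Pgls, the lactonase between them, was at 24.8 ± 0.387 CPM against 26.7 ± 0.703 CPM (-0.11, SE 0.052, adjusted p = 0.0852). Both dehydrogenases were thus higher in every thrombocytopenic library, while the lactonase was not.

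Among the non-oxidative enzymes the transferases rose and the isomerases did not pass. Tkt, transketolase, stood at 455.3, 439.9 and 443.3 CPM against 354.6, 371.3 and 355.8 CPM (0.31, SE 0.026, adjusted p = 1.3e-14). Taldo1, transaldolase, stood at 402.4, 390.9 and 392.3 CPM against 348.7, 349.1 and 347.2 CPM (0.18, SE 0.026, adjusted p = 4.12e-08). Rpia, ribose 5-phosphate isomerase, was at 13.4 ± 0.926 CPM against 13.1 ± 0.268 CPM, and Rpe, the epimerase, at 57.9 ± 1.06 CPM against 58.2 ± 3.46 CPM. Their log2 fold changes were 0.04 (SE 0.070) and -0.01 (SE 0.041), with adjusted p-values of 0.71 and 0.905.

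Summed over all 35 genes the RNA of the pathways was nearly the same, 9836 ± 39.7 CPM in the thrombocytopenic and 9860 ± 60.9 CPM in the control libraries. Its distribution differed. The 7 pentose phosphate genes summed to 2266 ± 18.7 CPM against 1936 ± 22.1 CPM, a ratio of 1.17. The 10 genes of the hexose phosphate steps summed to 2521 ± 15.7 CPM against 2764 ± 27.4 CPM, a ratio of 0.912. These sums describe the chosen genes and were not tested.

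**Figure D4:**
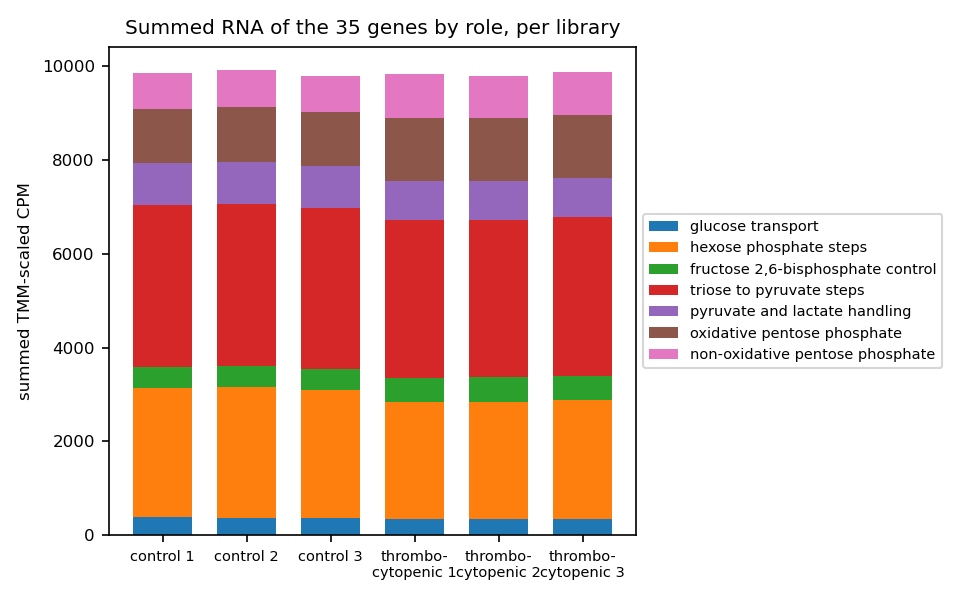
Summed TMM-scaled CPM of the 35 genes in each of the 6 libraries, stacked by role. The total is 9795 to 9918 CPM in every library, while the pentose phosphate layers are thicker in the thrombocytopenic (2247 to 2285 CPM) than in the control libraries (1923 to 1961 CPM).

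Ratios of 2 related genes within a library do not depend on how libraries are scaled, and 13 such pairs were compared. The libraries of the groups did not overlap for 8 of the 13 ratios. Of single tested genes 51.3% were separated in either direction, and no share was computed for other pairs of genes. The log2 ratio of Hk3 to Hk1 was 0.42 ± 0.068 in the thrombocytopenic and 0.80 ± 0.058 in the control libraries, a difference of -0.38, and that of Hk2 to Hk1 was -0.04 ± 0.037 and 0.25 ± 0.057, a difference of -0.29. Hk3 against Hk2 overlapped (difference -0.10, exact permutation p = 0.2). The ratio of Eno2 to Eno1 differed by -1.94 on the log2 scale, that of Pfkp to Pfkl by 0.19, Aldoc to Aldoa by 0.87, Slc16a1 to Slc16a3 by 0.14, Pdk3 to Pdk1 by -0.24 and Slc2a3 to Slc2a1 by -0.22. For each of these 8 the two-sided exact permutation p was 0.1, the smallest that 3 against 3 libraries allow, or 0.144 after Benjamini-Hochberg adjustment over the 13 ratios, so no ratio could pass 0.05. Pfkfb4 against Pfkfb3 overlapped (difference 0.08, exact p = 0.4), as did Slc2a6 against Slc2a1 (0.04, exact p = 0.3), Pfkm against Pfkl (0.31, exact p = 0.2) and Ldhb against Ldha (-0.61, exact p = 0.1).

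**Figure D5:**
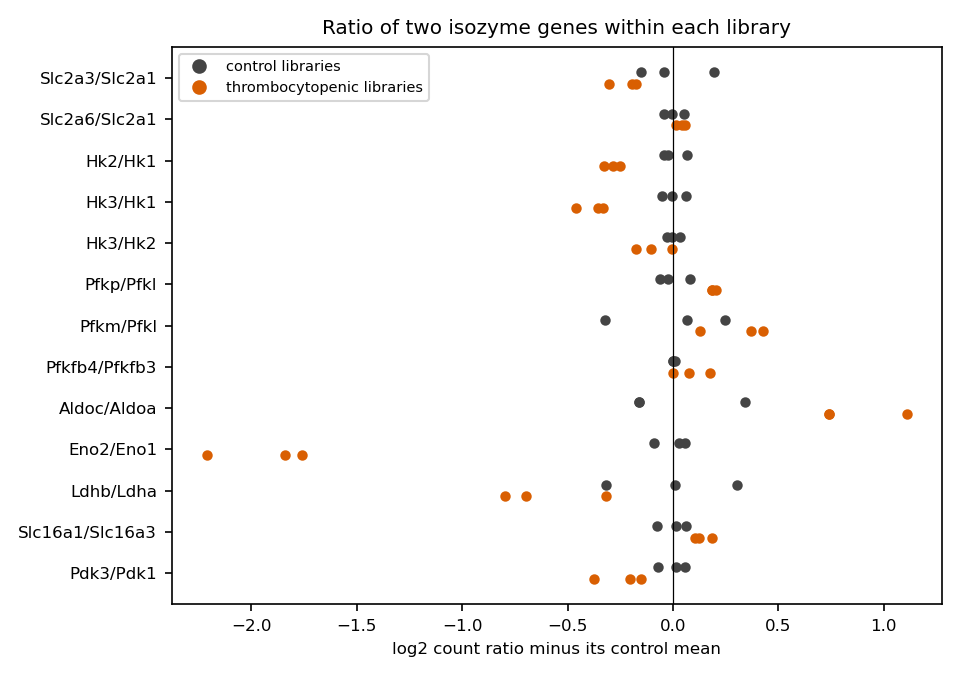
Log2 ratio of the counts of 2 related genes in each library, minus the mean of the control libraries, for 13 pairs; 3 points per group. The groups are farthest apart for Eno2/Eno1, with a difference of -1.94, and Hk2/Hk1 and Hk3/Hk1 lie lower in all 3 thrombocytopenic libraries.

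Neighbouring genes of sugar, glycogen and pyruvate metabolism were followed in a list of 82 names, of which 57 had enough counts. Of these, 11 were higher (19.3%) and 8 lower (14%), both below the background of 22.4% and 22.7%. H6pd, which carries out the first pentose phosphate steps inside the endoplasmic reticulum, was lower at 135.5, 136.3 and 139.4 CPM against 212.4, 209.5 and 207.0 CPM (log2 fold change -0.61, SE 0.029, adjusted p = 6.31e-25). Its cytosolic counterpart G6pdx was higher in the same libraries, as given above. Gpd2, the mitochondrial glycerol 3-phosphate dehydrogenase that takes electrons from glycolytic NADH, was higher at 278.7, 291.0 and 284.5 CPM against 196.1, 198.9 and 203.1 CPM (0.51, SE 0.028, adjusted p = 2.25e-22).

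Further genes of that list that passed were named after their values were seen. Besides Pdha1, the pyruvate dehydrogenase complex genes Dld (0.21) and Pdhx (0.16) were higher, as was Pdp1 (0.32), the phosphatase that reactivates the complex. Pdhb, at 70.0 and 66.0 CPM, and Dlat, at 59.6 and 57.2 CPM, did not pass. Emb (0.43), which encodes a partner of monocarboxylate carriers, the glycogen branching enzyme gene Gbe1 (0.46), the phosphomutase genes Pgm2 (0.17) and Pmm2 (0.11), Txnip (0.27), a brake on glucose uptake, and Myc (0.17) were higher on the log2 scale. Lower were Minpp1 (-0.45), Pgm1 (-0.42), the sugar phosphate carrier Slc37a2 (-0.34), the glycogen phosphorylase Pygb (-0.21), Mpi (-0.19), Arrdc4 (-0.16) and Hif1a (-0.19), the gene of the hypoxia-inducible factor subunit, which stood at 621.4, 618.2 and 630.6 CPM against 708.1, 705.2 and 720.1 CPM.

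Promoter sequence was looked up because known targets of hypoxia-inducible factor were found on both sides. For example, Slc2a1, Hk2, Pgam1 and Ldha were lower and Pfkfb3 higher. These genes are examples and not a full list of such targets among the members. RefSeq windows (build GRCm38.p6, 250 bases before to 50 after a start) matched 34 of the 35 genes, with Slc2a3 unmatched. The motif ACGTG, the core of the hypoxia response element, was searched on both strands. In all, 17 of 34 genes (50%) held it, against 21.8% of the 27025 genes in the table. By window the shares were 41.7% and 19.6%. The table holds more genes than the 12488 tested, and no share of any motif was computed for genes of like level. ACGTG was in 9 of 15 genes called lower (60.0%), 3 of 8 called higher (37.5%) and 5 of 11 not called (45.5%). The variant core GCGTG was in 24 of 34 (70.6%), against 35.2% of all, with 10 of 15 lower, 8 of 8 higher and 6 of 11 uncalled genes. The E-box CACGTG, each match of which also holds ACGTG on both strands, was in 4 of 34 (11.8%, against 8.09%), and the antioxidant response core TGACNNNGC in 5 of 34 (14.7%, against 14%). All windows were searched whatever their GC content, and a match is a description of letters, not a bound site.

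The stretches below lie before a start site and are shown 5′ to 3′ on the strand of the gene, with matches to these 4 motifs in capitals on either strand. The first 4 are from genes that were lower, the next 5 from genes that were higher, and Eno2, lower, comes last as the gene with the largest change and no match in its window.
Slc2a1, chr4:119108665-119108744, plus strand: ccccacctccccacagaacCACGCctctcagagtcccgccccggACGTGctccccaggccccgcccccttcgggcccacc
Hk2, chr6:82774455-82774534, minus strand: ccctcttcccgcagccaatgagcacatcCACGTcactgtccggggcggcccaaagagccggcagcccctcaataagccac
Ldha, chr7:46845644-46845803, plus strand: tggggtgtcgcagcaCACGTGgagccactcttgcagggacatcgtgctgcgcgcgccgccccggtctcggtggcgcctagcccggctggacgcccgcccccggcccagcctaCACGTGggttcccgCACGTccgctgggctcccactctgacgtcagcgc
Pgam1, chr19:41911681-41911800, plus strand: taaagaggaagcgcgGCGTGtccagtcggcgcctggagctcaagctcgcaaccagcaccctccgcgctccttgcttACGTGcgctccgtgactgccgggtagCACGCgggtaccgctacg
Pfkfb3, chr2:11502091-11502220, minus strand: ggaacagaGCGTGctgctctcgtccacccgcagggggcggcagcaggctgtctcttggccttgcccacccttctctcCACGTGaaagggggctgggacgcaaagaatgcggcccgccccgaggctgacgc
G6pdx, chrX:74428881-74428960, minus strand: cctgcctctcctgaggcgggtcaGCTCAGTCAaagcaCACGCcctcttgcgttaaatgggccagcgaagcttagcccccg
Pgd, chr4:149166706-149166785, minus strand: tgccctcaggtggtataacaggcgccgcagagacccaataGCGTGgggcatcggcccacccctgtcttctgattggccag
Tkt, chr14:30549051-30549130, plus strand: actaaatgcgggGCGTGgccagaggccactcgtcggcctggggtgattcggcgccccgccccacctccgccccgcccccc
Taldo1, chr7:141392070-141392159, plus strand: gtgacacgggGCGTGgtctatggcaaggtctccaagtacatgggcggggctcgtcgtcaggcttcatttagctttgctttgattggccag
Eno2, chr6:124769674-124769793, minus strand: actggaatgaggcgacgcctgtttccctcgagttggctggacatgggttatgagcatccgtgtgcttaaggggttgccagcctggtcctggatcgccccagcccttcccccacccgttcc
The Ldha stretch holds CACGTG in 2 places and Pfkfb3 in 1, although Ldha was lower and Pfkfb3 higher. The 4 pentose phosphate genes that rose each show the GCGTG core, but so do the windows of Pgls and Rpia, which did not pass the test. The antioxidant response core is matched in the stretch of G6pdx and in another window of Pgd, not shown.

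Markers of other cells differed between the groups as well. Neutrophils are rich in Hk3 and pentose phosphate enzymes. Their 13 markers summed to 515 to 523 CPM in the thrombocytopenic and 385 to 404 CPM in the control libraries, with 3 of 8 tested members higher and 1 lower. Most of that sum was Mmp8 (322 and 228 CPM) and Csf3r (159 and 141 CPM), while Ly6g (0 and 0.0116 CPM), Elane (0 and 0.0185 CPM) and Mpo (0.00933 and 0.0882 CPM) were at or near 0. Markers of dividing cells, which often express Hk2 and Ldha, summed to 428 to 457 CPM against 620 to 628 CPM, with 7 of 7 lower. The 10 macrophage markers summed to 7210 to 7410 CPM against 8110 to 8210 CPM, with 4 of 9 higher and 5 lower, and Vsig4 at 0. Most of that sum was Adgre1, which was higher (3280 and 2720 CPM), and Gpnmb, which was lower (3170 and 4520 CPM). Erythroid markers summed to 0 to 0.056 CPM against 1.89 to 2.42 CPM, with Alas2 and Slc4a1 at 0 in all libraries. Platelet markers summed to 1220 to 1290 CPM against 1010 to 1060 CPM, with 2 of 7 tested members higher and 5 lower. Nearly all of that sum was Pf4 and Ppbp (150 and 95.3 CPM), while Tubb1 (0.109 and 0.118 CPM) and Gp9 (0 and 0.453 CPM) were near 0. Dendritic cell markers summed to 227 to 233 CPM against 304 to 321 CPM (5 of 6 lower), B cell markers to 13.4 to 15.1 against 11.0 to 13.0 CPM, basophil and mast cell markers to 0.32 to 0.569 against 6.6 to 8.32 CPM, and T and NK cell markers to 0.32 to 0.502 against 0.845 to 1.14 CPM. The part of these markers in the results on the 2 pathways was not tested, and in bulk RNA fewer cells of a type and less RNA per cell cannot be told apart. Near copies took few counts: of 19 rows named as copies of member genes 12 had any count, at most 25 in a library (Gapdh-ps16) and at most 6 for the other copies, but the handling of reads that fit several places is not given, so that Gapdh, Aldoa, Pgk1, Eno1, Ldha and Pgam1, which have processed copies, are uncertain to that extent.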

How the data were processed

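Polyadenylated RNA of 6 libraries was sequenced after a stranded preparation, per the labels' protocols. The authors deposited 1 file per library of raw gene counts, unscaled integers. The submitters' processing notes list STAR 2.7.9a, featureCounts, Subread 2.0.1, Salmon 1.5.2 and fastp 0.23.1. The role of each tool, the genome build and the use of strand: not given in the sources used here. Overlapping and antisense genes are uncertain for that reason. Counts were analysed as deposited in R 4.3.3. Genes passing filterByExpr (minimum count 10, minimum total 15) were scaled by TMM and compared with edgeR 4.0.16 (two-sided quasi-likelihood test, robust fit, no covariate). P-values were adjusted by Benjamini and Hochberg over 12488 genes and called below 0.05. A standard error is |log2 fold change| over the root of that gene's F. CPM of members are TMM-scaled, and marker values are CPM on library totals. Ratios used log2 counts plus 0.5 and an exact permutation test. Shares per kilobase used merged exons of GENCODE M21, which may not be the annotation of the files. Alternatives were other scalings, filters and thresholds, DESeq2 1.42.0, limma 3.58.1 (voom), left-out libraries and a replicate block. The steps were tested on simulated data. Depth was 24842319 to 37552029 counts per library, so that a gene at 1 CPM rests on few reads.

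The members and lists were chosen with earlier results of these data known. Values per library are given for members past the threshold with an absolute log2 fold change of at least 0.25, for the 3 of highest mean CPM and for genes of a described ratio; Slc16a1, Slc16a3, Pfkm, Pfkl, Pfkp, Eno1 and Pdk1 are given as means or fold changes only, and G6pdx, Taldo1 and Hif1a were added after their values were seen. Neighbouring genes are named where past the threshold with a mean of at least 1 CPM and an absolute log2 fold change of at least 0.5; others are marked, and some genes of the lists are not reported here. The level of 100 CPM used for abundant genes was chosen after the values were seen, as were the promoter motifs.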

Additional observations from a re-analysis of the deposited data

How the results depend on the processing

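Under 16 alternative settings, 28 of the 35 members stayed on the same side of the threshold: 7 of 8 higher genes (all but Aldoc), 13 of 16 lower genes (all but Slc2a3, Slc2a6 and Gapdh) and 8 of 11 that had not passed (all but Pfkp, Pdk1 and Pgls). No member past the threshold changed sign in any setting, while Pgk1 and Rpe, which never passed, did. Leaving out single libraries gave 7 to 9 higher and 13 to 16 lower members, and 9 to 13 higher and 7 to 10 lower neighbouring genes. The other settings gave 7 to 8 higher and 14 to 18 lower members. With DESeq2 the calls of Slc2a3 (adjusted p = 0.0549), Aldoc (0.0554) and Gapdh (0.0595) were lost, and with upper quartile scaling Pdk1 (-0.14) and Pgls (-0.13) were called lower. Upper quartile scaling gave 2362 higher and 3164 lower genes in all, against 2792 and 2834; the cause was not tested. Eno2 ranged from -2.24 to -2.04, Hk3 from -0.67 to -0.59, Hk2 from -0.58 to -0.50, Tkt from 0.28 to 0.33 and Pgd from 0.22 to 0.25. Same-numbered libraries did not deviate together (correlations -0.0437, -0.118 and -0.0297), so no pairing by number was seen. The labels do not say whether the numbers pair libraries. With a replicate block 8 members were higher and 15 lower, Gapdh being lost (adjusted p = 0.0668), and among neighbouring genes 11 and 8. No isozyme ratio changed direction in any of 117 values under other settings, where no p could pass 0.05. For the replicate block this was fixed in advance, since the mean of paired differences equals the difference of the group means. Depth limits Aldoc, Ldhb, Eno2, Slc2a3 and Pfkm, the 5 members under 10 CPM on average.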

Other observations

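Genes of this pathway are often used as references in quantitative PCR, so 7 members were also set against 3 candidate references within each library. Relative to Gapdh, the log2 ratio differed between thrombocytopenic and control libraries by 0.30 for Pgd, 0.37 for Tkt, 0.26 for G6pdx, 0.24 for Taldo1, -0.48 for Hk2, -0.58 for Hk3 and -2.10 for Eno2. Relative to Pgk1 the differences were 0.23, 0.30, 0.19, 0.17, -0.55, -0.65 and -2.18 in the same order, and relative to Aldoa 0.32, 0.39, 0.28, 0.26, -0.46, -0.56 and -2.09. Each of these 21 ratios gave an exact permutation p of 0.1, the smallest possible with 3 against 3 libraries. The direction was the same with all 3 references, while the size for Taldo1 ranged from 0.17 to 0.26. The shared direction was fixed in advance, because the 7 members had already passed the test and the references differed little. Their log2 fold changes were 0.01 for Pgk1, -0.06 for Gapdh and -0.08 for Aldoa, and Gapdh and Aldoa were themselves called lower. The 21 ratios reuse the same counts and are no separate evidence. These ratios were chosen after the values were seen.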
